A study of Caenorhabditis elegans with 2 samples.

Results

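AMA-1 is the large subunit of RNA polymerase II, the enzyme that transcribes protein-coding genes and many noncoding ones. Chromatin immunoprecipitation followed by sequencing (ChIP-seq) of AMA-1 in C. elegans gave 1861 peaks in the authors' optimal list, and 240 of them lay on the X chromosome. These 240 are all rows of that list placed on X on the ce11 build, chosen by position and by no measured value. Whole L2 larvae of the wild-type strain N2 were used, labelled as males and females pooled, with 2 biological replicates in 1 group. The labels give no second stage, genotype or treatment, no age in hours and no growth conditions, so X was described beside the autosomes of the same larvae and no test between groups was made.

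In a ChIP-seq experiment, DNA fragments bound by a protein are recovered and sequenced, and a peak marks where they pile up, with the summit as its highest point. RNA polymerase II is commonly found near the 5′ ends of transcribed genes, along them, and again just past their 3′ ends, where transcription slows before it stops. In C. elegans, hermaphrodites carry a pair of X chromosomes and males a single one. The dosage compensation complex, a condensin-like machine, binds the X chromosomes of hermaphrodites at recruitment sites and lowers transcription from them. Genes active in the germline are scarce on X. Because whole larvae were used, occupancy in a few cells and weaker occupancy in many cells cannot be told apart. The larvae are labelled as both sexes pooled, the share of males is not known here, and the sexes cannot be told apart.

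The strongest X peaks lay at noncoding genes. The 101 bases centred on the summit are printed for the strongest summit at each of 4 noncoding genes, and for the strongest X summit upstream of a protein-coding 5′ end within 500 bp. They show where the highest occupancy of each kind lay, read on the plus strand of the WBcel235 build (the same assembly as ce11, from RefSeq) with any GAGAGA motif in capitals. The first is chrX:16929985-16930085 in C30E1.9, the second chrX:1504585-1504685 in tts-1 and the third chrX:6252370-6252470 in W05H9.3. The fourth is chrX:13145107-13145207 beside the microRNA gene mir-54, in an intron of F09A5.3. The fifth is chrX:6279879-6279979, just upstream of the cuticle collagen gene col-166.
C30E1.9: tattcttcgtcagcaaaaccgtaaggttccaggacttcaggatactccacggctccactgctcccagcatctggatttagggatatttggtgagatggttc
tts-1: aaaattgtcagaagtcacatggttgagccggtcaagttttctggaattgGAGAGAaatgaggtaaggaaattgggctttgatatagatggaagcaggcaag
W05H9.3: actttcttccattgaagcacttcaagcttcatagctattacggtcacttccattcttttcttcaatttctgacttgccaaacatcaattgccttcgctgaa
mir-54: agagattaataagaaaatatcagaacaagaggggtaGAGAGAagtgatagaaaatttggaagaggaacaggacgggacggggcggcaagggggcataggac
col-166: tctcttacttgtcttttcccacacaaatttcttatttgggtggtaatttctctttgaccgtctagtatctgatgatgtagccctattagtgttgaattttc

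A further set of X summits carried the 7 letters GCGCAGG, which form the core of a motif known from the recruitment sites of the dosage compensation complex on X. These letters, searched on both strands in the 201 bases centred on each summit, were found at 7 of the 240 X summits, at 10 places in all. Each place is printed below with 12 bases on either side, on the strand that reads GCGCAGG, with those letters in capitals. The names are those of the protein-coding gene whose 5′ end was nearest to the summit. The positions, in the order printed, are chrX:8036390-8036420 on the minus strand, chrX:8036423-8036453 on the plus strand, chrX:14525889-14525919 on the minus strand and chrX:11094114-11094144 on the minus strand. They continue with chrX:11094215-11094245 on the minus strand, chrX:4209255-4209285 on the minus strand and chrX:6296564-6296594 on the plus strand. The last 3 are chrX:6296536-6296566 on the plus strand, chrX:15340920-15340950 on the minus strand and chrX:16056639-16056669 on the minus strand.
xol-1, first: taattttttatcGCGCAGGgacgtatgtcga
xol-1, second: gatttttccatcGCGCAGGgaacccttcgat
nspc-17: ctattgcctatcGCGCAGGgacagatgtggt
W02H3.3, first: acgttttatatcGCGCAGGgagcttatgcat
W02H3.3, second: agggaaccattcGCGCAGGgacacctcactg
F20B6.9: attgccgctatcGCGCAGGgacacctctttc
mom-1, first: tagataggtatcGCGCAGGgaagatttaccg
mom-1, second: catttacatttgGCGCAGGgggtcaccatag
Y15E3A.5: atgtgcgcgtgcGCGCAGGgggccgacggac
T27A8.7: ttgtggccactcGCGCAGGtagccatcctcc

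AMA-1 peaks were sparser on X than on any autosome per unit of sequence, and about as frequent per gene. X held 12.9% of the peaks (Wilson 95% interval 11.5 to 14.5%), beside 17.7% of the sequence and 13.7% of the protein-coding genes. That is 13.5 peaks per Mb on X against 19.6 on the autosomes together, where single autosomes ranged from 15.8 to 25.4. Per 100 protein-coding genes, X had 8.79 peaks and the autosomes 9.40, with single autosomes between 6.91 and 13.3. X carries fewer protein-coding genes per Mb (154) than the autosomes (209). All intervals on shares cover counting error alone, since neighbouring peaks are not independent and the number of reads is unknown.

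The share of X was similar among the strongest and the weaker peaks of the list. X held 4 of the 25 strongest peaks (16%), 12 of the 100 strongest and 58 of the 500 strongest (11.6%). In the authors' longer list called on pooled replicates, which also contains background, the share was 13.8% of the strongest 5000 and 15.1% of all 30000 regions. Taken alone, the strongest 1861 regions of replicate 1 held 233 on X (12.5%), and those of replicate 2 held 238 (12.8%).

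**Figure D1:**
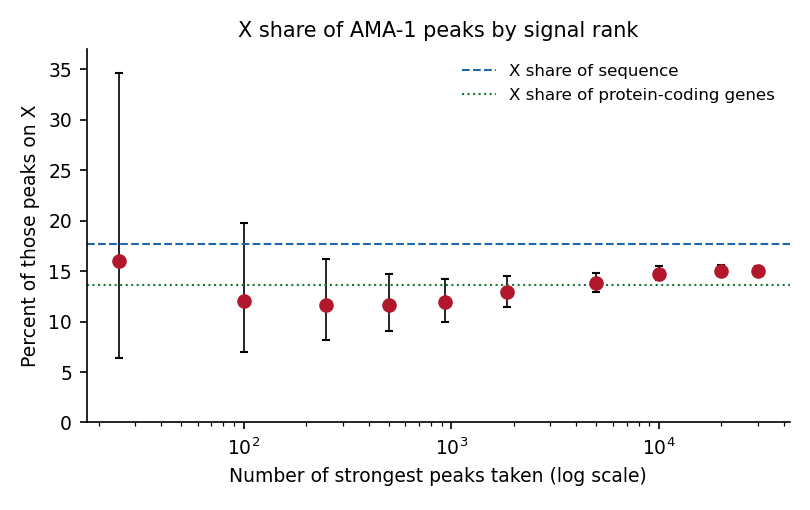
Percent of AMA-1 peaks on X (points, with Wilson 95% intervals) among increasing numbers of the strongest peaks, on a log axis; points up to 1861 come from the optimal list and those beyond from the pooled list. Among the strongest 500 the share was 11.6%, and among all 30000 it was 15.1%, between the X shares of protein-coding genes (13.7%, dotted line) and of sequence (17.7%, dashed line).

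Signal, the authors' value for each peak on a scale not given in the sources used here, was close on X and autosomes. On X the lowest value was 47.5, the quartiles were 52.5 and 82.7, the median was 62.9 and the highest value was 1050.3. The autosomal median was 65.7, and single autosomes ran from 63.1 to 67.6, so the X median lay just under their range and at 0.957 of the autosomal median. The highest autosomal peak reached 1435. At the lower edge of the list, the 5 weakest X peaks had signals of 47.7 (in tsp-21), 47.6 (upstream of F48F7.6), 47.5 (nearest to phf-31), 47.5 (in sgca-1) and 47.5 (in acs-17). The strongest X regions left out were past ain-1 (47.3), at F18H3.4 (47.1), in sfxn-2, at M60.4 and at asb-2 (46.7), so no gap in signal separated them.

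Among the 25 strongest X peaks, 9 were away from protein-coding genes, 8 at a 5′ end, 3 in a gene body and 5 just past a 3′ end. Here the 5′ end of a gene is its outermost annotated start, so starts of shorter transcripts inside it were not counted as 5′ ends. A summit within 500 bp of such a protein-coding 5′ end counts as 5′ end. Other summits count as gene body if inside a gene, as past the 3′ end if within 500 bp after one, and else as elsewhere. The 5 strongest were all of the last class and lay at 3 noncoding genes.

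C30E1.9 (chrX:16929914-16944683, plus strand) held 6 summits, as many as ZK470.2, the protein-coding gene of X with the most. The highest, 121 bp downstream of its 5′ end, had a signal of 1050.3, the fourth highest of the whole list. Replicate 1 gave 682 and replicate 2 gave 378 at that summit. Summits 320, 1027 and 1591 bp into the gene had 93.9, 458 and 365, and 2 more toward its 3′ end, 12854 and 14244 bp in, had 55.1 and 150.2. The 4 summits at the 5′ end shared 1 called interval of 2248 bp, the widest on X, so they are not separate regions.

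tts-1 (chrX:1504131-1504841, minus strand) is a noncoding RNA known from dauer larvae and long-lived mutants. Its summit 206 bp into the gene had a signal of 636, with 506 in replicate 1 and 134 in replicate 2. A second summit 50 bp past its 3′ end had 171. W05H9.3 (chrX:6252274-6253785, plus strand) had 331 at 146 bp into the gene (225 in replicate 1 and 130 in replicate 2) and 140.1 at 234 bp past its 3′ end. All 3 noncoding genes thus had their higher summit near the 5′ end, and tts-1 and W05H9.3 had a lower one just past the 3′ end. The noncoding gene rncs-1, whose RNA is known to inhibit the processing enzyme Dicer, had summits of 130.5 at 256 bp past its 3′ end and 55.1 at 106 bp upstream of its 5′ end.

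The next strongest site was at a cluster of microRNA genes that lies on the minus strand within an intron of F09A5.3. A summit of 246 lay 135 bp from the mature mir-54, and summits of 96.3 and 96.1 followed beside mir-56 and beyond it. At the highest of the 3, replicate 1 gave 193 and replicate 2 gave 59.0. MicroRNAs are short RNAs that pair with messenger RNAs mainly through bases 2 to 8, the seed. Each hairpin of this cluster gives a mature RNA from either arm. Those of the 3′ arm share 1 seed, and the following lines give them and the 5′ arm of let-7 as in RefSeq, 5′ to 3′, with the seed in capitals. The RNAs of the other arm differ in their seeds and are not printed.
mir-54: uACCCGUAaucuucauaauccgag
mir-55: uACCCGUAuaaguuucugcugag
mir-56: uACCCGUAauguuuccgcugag
let-7: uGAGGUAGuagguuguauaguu

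let-7, a microRNA that times the passage to adult fates, had a weak summit (52.9) 139 bp past the 3′ end of its annotated gene (chrX:14743590-14745321, minus strand). It was among the X peaks most unequal between replicates, with 6.26 in replicate 1 and 37.8 in replicate 2. mir-84, whose 5′ arm has the same seed as let-7, had no summit nearer than 34196 bp. Of 74 microRNA genes annotated on X, 8 lay within 500 bp of a summit. The others included mir-62 (summit 103), mir-8196.1 (98.9, with no overlapping region in replicate 1) and mir-239.2 (52.6).

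At protein-coding genes, several of the strongest X summits fell at both ends of short genes. osm-11 (chrX:17420211-17421582), which encodes a secreted ligand acting with Notch receptors, had 236 at 226 bp downstream of its 5′ end (235 in replicate 1 and 32.8 in replicate 2). A second summit in its 3′ untranslated region had 220.2 (184 and 40.0 in replicates 1 and 2). mdl-1, a Mad-like transcription factor, had 153 at 146 bp downstream of its 5′ end, 141 in an intron and 213 at 112 bp past its 3′ end. mxl-3, a Max-like factor of the same family, had 84.9 at 142 bp upstream of its 5′ end, 111 in its 3′ untranslated region and 122 at 43 bp past its 3′ end. The summit past the 3′ end had no overlapping region in replicate 1 and 21.4 in replicate 2. The one in the 3′ untranslated region had 122 in replicate 1 and 14.6 in replicate 2. ftt-2, a 14-3-3 protein gene, had 129 at 154 bp upstream and 119 in its 3′ untranslated region. In the optimal list the highest summit of mdl-1 and mxl-3 was thus past the 3′ end, for mxl-3 without an overlapping region in replicate 1. In osm-11 and ftt-2 the higher was near the 5′ end.

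act-4, an actin gene and the strongest X summit in the muscle list, had 206 at 54 bp downstream of its 5′ end, with 118 in replicate 1 and 85.2 in replicate 2. cah-4, a carbonic anhydrase gene, had 205 at 1013 bp upstream of its 5′ end (170 in replicate 1 and 38.8 in replicate 2) and 100.5 at 129 bp upstream. It also had 91.7 at 42 bp past its 3′ end, where no region of replicate 2 overlapped. col-166 had 168 at 87 bp upstream of its 5′ end (145 and 25.3 in replicates 1 and 2). The neuropeptide-like gene nlp-76 had 158 at 136 bp downstream of its 5′ end, but that summit was also 70 bp past the 3′ end of the nuclear receptor gene nhr-17 on the same strand. A summit of 148 lay 213 bp upstream of bet-2, which encodes a bromodomain protein (99.0 and 51.1 in replicates 1 and 2). Others in the 25 strongest were 146 at 51 bp past pmpl-1 and 129 at the 33-base coding gene H40L08.8. The peak of 130.5 past rncs-1 also lay 112 bp past the 3′ end of nlf-1, an ion channel localization factor.

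The operon of mai-1, gpd-2 and gpd-3 lay in the densest stretch of X. mai-1 is related to inhibitors of the mitochondrial ATPase, and gpd-2 and gpd-3 encode glyceraldehyde-3-phosphate dehydrogenase of glycolysis. They are transcribed in that order on the minus strand. Summits of 58.5, 119.8 and 55.6 lay 42, 653 and 1277 bp downstream of the 5′ end of mai-1. A summit of 73.8 lay 243 bp into gpd-2, 2 of 65.4 and 84.8 lay 10 and 240 bp into gpd-3, and the highest, of 177, lay 118 bp past the 3′ end of gpd-3. That last summit had 141 in replicate 1 and 36.9 in replicate 2.

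Summits lay less often at 5′ ends on X than on any autosome, and more often away from protein-coding genes. At 5′ ends were 88 of 240 X summits (36.7%, 30.8 to 42.9%), against 46.2% on the autosomes, where single ones ran from 38.7 to 50.6%. Elsewhere were 64 (26.7%, 21.5 to 32.6%), against 14.7% (11 to 18.4%). Gene bodies held 65 (27.1%, autosomes 28.9%), and 23 (9.58%, autosomes 10.2%) were past a 3′ end. The sequence itself is divided differently: 33.5% of X bases but 23.9% of autosomal bases were elsewhere, and 15.0% against 19.6% were within 500 bp of a 5′ end. The part of the sequence in the difference was not tested.

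**Figure D2:**
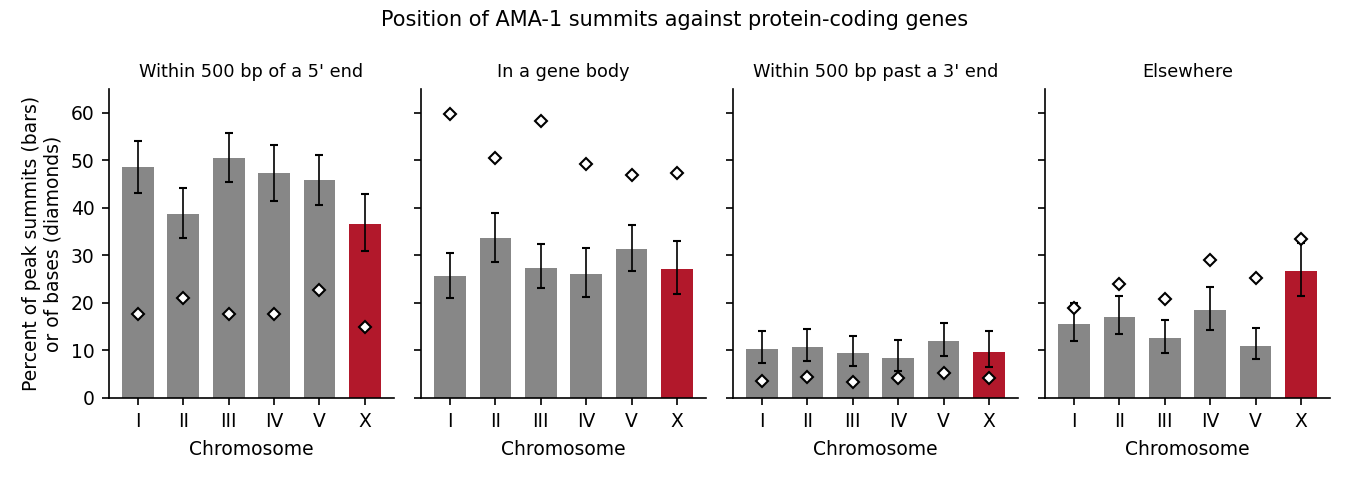
Percent of AMA-1 summits (bars, with Wilson 95% intervals) and of bases (diamonds) in 4 classes of position, for each autosome (grey) and X (red). X was lowest at 5′ ends (36.7%) and highest elsewhere (26.7%), and its bases were also the lowest (15.0%) and the highest (33.5%) in these classes.

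In each replicate alone, X had a lower share at 5′ ends and a higher share elsewhere than the autosomes together. Single autosomes were not compared there. In the strongest regions of replicate 1, 25.3% of X summits and 14.9% of autosomal ones were elsewhere, and in replicate 2 the values were 22.7% and 13.4%. In the stronger 930 peaks of the optimal list they were 27.9% and 13.2%. At 5′ ends and in gene bodies the replicates differed more than X and the autosomes did: 5′ ends held 40.8% of the X summits of replicate 1 but 23.95% of those of replicate 2, and gene bodies 25.3% and 41.6%.

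Signals by class did not follow the same order. The median was 59.7 at X 5′ ends, 62.9 in gene bodies, 63.8 elsewhere and 82.4 past 3′ ends. On autosomes these medians were 66.3, 65.6, 62.3 and 69.2. For the X peaks past 3′ ends only 23 values enter the median, and single autosomes ran from 62.2 to 78.3.

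The median distance from an X summit to the nearest protein-coding 5′ end was 1003 bp, against 636 bp on the autosomes (476 to 898). At 5′ ends, 47 X summits were upstream and 41 downstream. Within 500 bp of a 3′ end on either side were 60 X summits (25%), against 34.3% on the autosomes (29.2 to 37.4%). By annotated feature, 60 X summits (25%) were in introns, against 19.4% (14.5 to 23.4%), and 29 (12.1%) in coding exons, against 18.6% (12.9 to 27.0%).

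**Figure D3:**
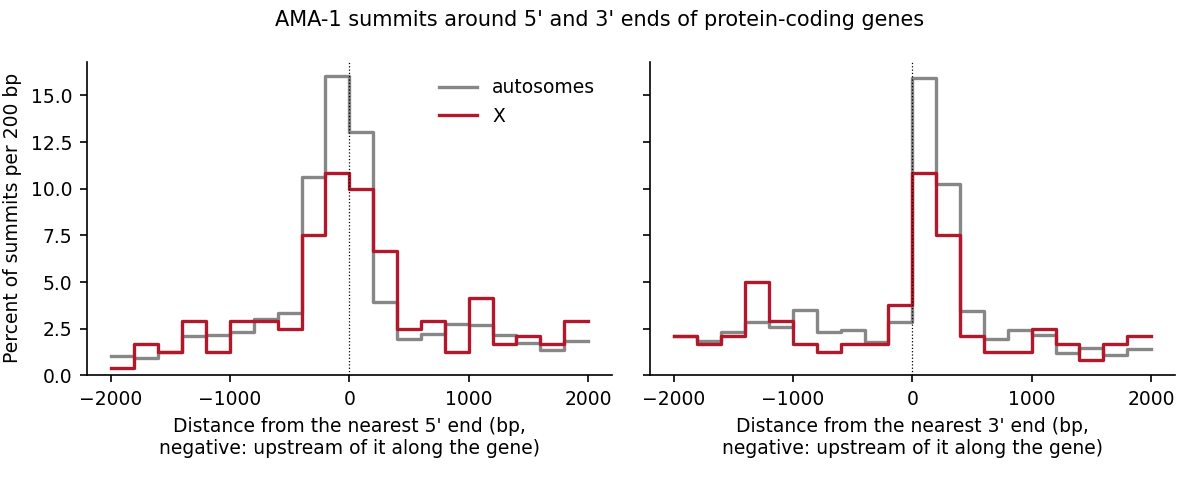
Percent of summits per 200 bp against the distance from the nearest 5′ end (left) or 3′ end (right) of a protein-coding gene, for X (red) and the autosomes (grey). On X 10.8% of summits lay in the 200 bp upstream of a 5′ end and 10.8% in the 200 bp past a 3′ end, and both steps of the X line lie under the autosomal line there.

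Of the 64 X summits elsewhere, 24 had a gene annotated as ncRNA within 500 bp, 2 a tRNA gene and 2 a microRNA gene, while 39 (60.9%) had no annotated noncoding gene of any class. On the autosomes 62.8% of such summits had none. Over all 240 X peaks, 56 (23.3%) had an ncRNA gene within 500 bp against 14.7% on autosomes, and 11.7% of X bases but 5.65% of autosomal bases are that near one. tRNA genes, which RNA polymerase III transcribes, were near 8 X summits (3.33%, autosomes 0.864%), and X carries 276 of them against 336 on all autosomes. Of X bases 1.38% lie within 500 bp of a tRNA gene, and of autosomal bases 0.398%. Only 9 of the 276 had a summit that near. No X summit was near a snoRNA or snRNA gene. X carries 33 snoRNA genes and 3 snRNA genes, and the autosomes had 66 and 32 summits near their 313 and 126.

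A smaller share of protein-coding genes was occupied on X than on any autosome, where a gene counts as occupied if a summit of the optimal list lies within 500 bp of its 5′ end. X had 90 of 2731 (3.30%), the autosomes 869 of 17242 (5.04%) and the whole genome 959 of 19973 (4.80%). Chromosome V had 3.72%, II 4.29%, IV 4.54%, I 6.29% and III 7.77%. With the strongest regions of each replicate alone, X had 3.59% and the autosomes 5.50% in replicate 1, and 2.09% and 3.07% in replicate 2. Without the large chemoreceptor, F-box, BTB-MATH and C-type lectin families, the values were 3.36% on X and 5.60% on the autosomes.

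Over all gene lists together, 17 of 267 X members (6.37%) were occupied, beside 5.52% of autosomal members and the X background of 3.30%. The lists were chosen with earlier results of these data known, so no conclusion is drawn from a share above the background. Several lists have few members on X. Of 81 ribosomal protein genes only 2 are on X, and 1 of them, rpl-11.2 (106), was occupied. None of 33 proteasome genes and none of 50 germline genes in the lists lies on X. Of the glycolysis list 2 of 3 X members were occupied, gpd-3 (84.8) and gpd-2 (73.8). Both X members of the methionine cycle list were, sams-1 (62.7), which makes S-adenosylmethionine, and cbs-1 (52.0), a cystathionine beta-synthase. V-ATPase, the proton pump of acidic organelles, had 2 of 3, vha-12 (75.1) and vha-20 (65.5). The chaperone list had 2 of 5, the protein disulfide isomerase gene pdi-2 (109) and hsp-3 (57.0), a chaperone of the endoplasmic reticulum. Translation factors had 1 of 4, eef-1A.2 (109), and oxidative phosphorylation 1 of 6, asg-2 (56.5).

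The tissue lists and large families had at most 2 occupied X members each, beside 3.30% of all X protein-coding genes. Muscle had 1 of 16 (act-4), intestine 1 of 10 (sams-1) and the molting and epidermis list 1 of 13 (pdi-2). Cuticle collagens had 2 of 30, col-166 (168) and dpy-8 (67.8). Of neuropeptide genes 1 of 34 was occupied (nlp-76), and of neuronal genes 0 of 24. Nuclear hormone receptors had 1 of 23, nhr-35 (47.9), although 5 held a summit somewhere from 500 bp upstream to 500 bp past the gene. Of all X protein-coding genes 5.31% held a summit in that span. Histones had 1 of 5, the linker histone gene his-24 (54.5). No X member of the homeobox (22), chemoreceptor (34), F-box and BTB-MATH (17), C-type lectin (3) or RNA polymerase II (4) lists was occupied. Of their autosomal members 1.72, 0.471, 0.529, 0.422 and 20% were, in that order. All 5 X vitellogenin genes, which encode yolk proteins, and all 6 X members of the sex determination and dosage compensation list were without a summit. With 5.31% of X genes holding one, lists this small cannot be told from that background.

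The heterochronic genes, which set the timing of larval stages, showed occupancy inside long genes. lin-14, a nuclear factor of early larval fates, had 3 summits of 54.5, 69.2 and 61.7, at 2005, 6417 and 15624 bp from its annotated 5′ end, all in introns. The nuclear receptor gene daf-12 had 58.2 at 1913 bp from its 5′ end. Neither had a summit within 500 bp of its outermost annotated 5′ end, and no other of the 5 X members had any. Starts of shorter transcripts inside these genes were not examined.

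Several X genes carried more than 1 summit. Counting from 500 bp upstream to 500 bp past each gene, 145 X protein-coding genes had at least 1 summit (5.31%, autosomes 7.96%). Of these, 43 had at least 2 (29.7%, autosomes 25.1%) and 19 at least 3. ZK470.2 had the most, with 6 summits of 50.8 to 115 at 4641 to 12584 bp from its 5′ end. nhr-17, mai-1 and unk-1 had 4 each. With these margins a summit can count for more than 1 gene, on X and autosomes alike. The last of mai-1 is the summit of 73.8 in gpd-2, and the last of nhr-17 is that of nlp-76 (158). tatn-1, a tyrosine aminotransferase gene, had 66.3, 79.2 and 80.6 at 82, 714 and 1462 bp. aak-2, a catalytic subunit of AMP-activated kinase, had 76.3, 51.4 and 85.3 at 969, 1171 and 3186 bp. gyg-1, a glycogenin gene, had 70.0 at 2028 bp, and 90.4 and 86.2 at 3 and 232 bp past its 3′ end. At the 2 past the 3′ end no region of replicate 2 overlapped.

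X peaks were spread along the chromosome, and the share in its central part was lower than on any autosome, though close to that of IV. The central 50% of X held 112 of its summits (46.7%, 40.5 to 53.0%) and 52.9% of its protein-coding genes. In the same part of the autosomes were 69.5% of the summits of I, 66.5% of II, 67.7% of III, 52.0% of IV and 77.1% of V, with 52.0 to 59.4% of the genes. The interval of IV (46.1 to 57.8%) overlaps that of X. On IV, as on X, the share of summits was under that of the genes (59.4% on IV). With X cut into 10 equal parts, the counts from left to right were 13, 28, 29, 26, 26, 14, 21, 33, 23 and 27. The share of occupied genes was lowest in the seventh of these parts (1.53%) and highest in the ninth (4.95%). The sixth had no summit elsewhere, and the last had 11, 6 of them in C30E1.9.

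**Figure D4:**
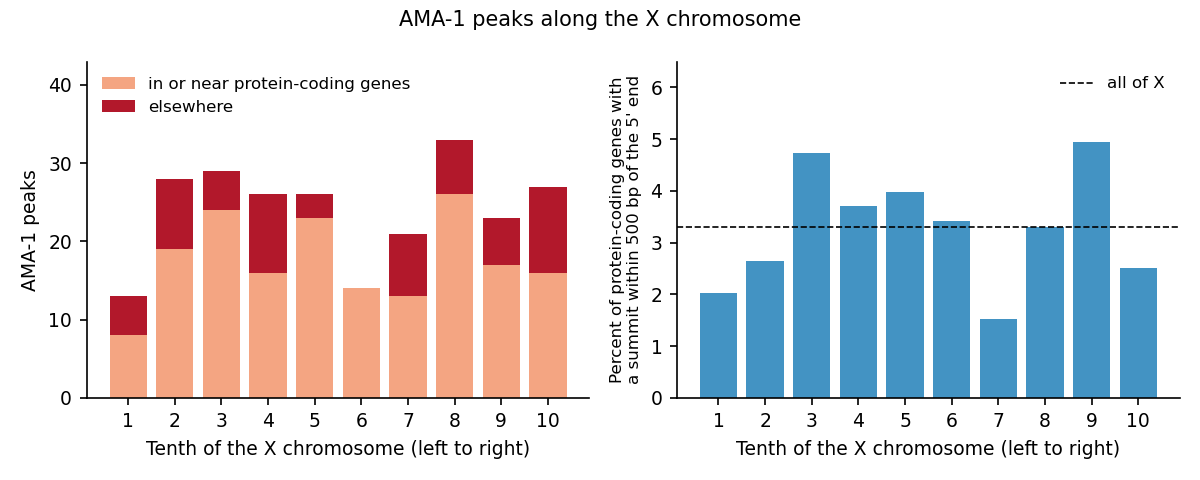
Left, AMA-1 peaks in each of 10 equal parts of X, split into those in or near protein-coding genes and those elsewhere (dark). Right, percent of protein-coding genes occupied in each, with the value of all X (3.30%, dashed). Peaks ranged from 13 in the first to 33 in the eighth, and occupied genes from 1.53% to 4.95%.

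Summits were clustered at short range. The median gap between neighbours was 17636 bp, yet 40 gaps were under 1000 bp and 116 summits had another within 2000 bp. The longest stretch without a summit was 584737 bp, from chrX:5216600 at hrpa-2 to chrX:5801337 near F46G11.4. The densest 100 kb, chrX:3024168-3124167, held 13 summits of 53.4 to 177, from aqp-7, an aquaglyceroporin gene, past pccb-1 and wrt-2 to the mai-1 operon. The next, chrX:6204639-6304638, held 11, among them W05H9.3 and col-166, and 2 stretches held 9 each: chrX:4101377-4201376, among them ZK470.2 and vha-12, and chrX:6736864-6836863, among them mdl-1.

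Regions of each replicate overlapped nearly all X peaks, with different signals. Whole replicate lists, which include background, overlapped 235 X peaks in replicate 1 and 227 in replicate 2. The optimal list was made with these lists, so such overlap was largely built in. The strongest 1861 regions of replicate 1 overlapped 186 X peaks (77.5%, autosomes 82.1%, range 79.6 to 85.4%), and those of replicate 2 overlapped 135 (56.2%, autosomes 56.0%). Both did so for 92 (38.3%, autosomes 41.7%) and replicate 1 only for 94 (39.2%, autosomes 40.4%). Replicate 2 only did so for 43 (17.9%, autosomes 14.25%) and neither for 11 (4.58%, autosomes 3.64%). At the 222 X peaks with a value in both lists, the signal was higher in replicate 1 at 200. On the autosomes it was higher in replicate 1 at 1347 of 1537, so the imbalance was shared by the whole list. The median log2 ratio of replicate 1 to replicate 2 was 1.44 on X and 1.32 on the autosomes (1.20 to 1.38), a difference of 0.12. Peaks were called separately in each replicate, so a ratio can be read only relative to those of other peaks.

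The X peaks lowest in replicate 1 relative to replicate 2 included R02E4.3 (6.54 and 60.7), let-7 as given above, and the collagen gene dpy-8 (8.06 and 39.4). A summit of C30E1.9 (19.5 and 80.0) and one near F09F9.2 (8.33 and 28.7) followed. Highest in replicate 1 were a summit 63 bp into a coding gene within atf-4 (59.0 and 3.58) and one 362 bp upstream of epg-7, an autophagy gene (66.3 and 4.08). The kinase gene akt-2 (68.5 and 4.49), B0410.3 (84.7 and 5.92) and cah-4 at 789 bp upstream (84.1 and 6.59) came next. By class, the median log2 ratio was 1.58 at X 5′ ends and 1.08 in X gene bodies, and 1.51 and 1.04 on the autosomes.

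**Figure D5:**
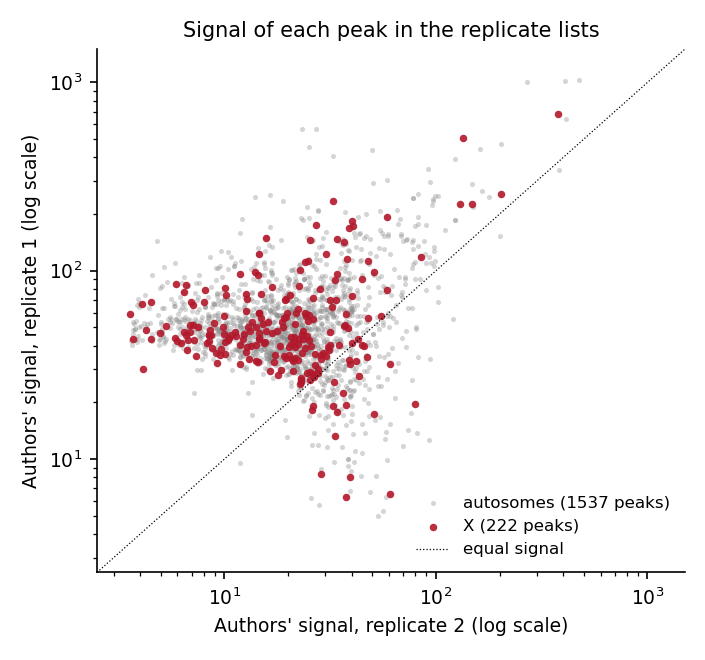
Authors' signal of each optimal peak in replicate 1 against replicate 2, both on log axes, for 222 X peaks (red) and 1537 autosomal peaks (grey); the dotted line marks equal signal. Of the X peaks 200 lie above the line and of the autosomal peaks 1347, and both sets cover the same area.

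The GCGCAGG letters were at 7 of 240 X summits (2.92%, 1.42 to 5.90%) and at 14 of 1621 autosomal ones (0.864%, 0.515 to 1.44%), and these intervals overlap narrowly. In consecutive 201-bp windows over whole chromosomes the shares were alike, 0.380% on X and 0.383% on the autosomes, and at X protein-coding 5′ ends the share was 0.330%. Of the 7 X summits, 4 were elsewhere, 1 at a 5′ end, 1 in a gene body and 1 past a 3′ end.

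The flanks shared by most of the printed places were then counted, a pattern picked after they were seen and therefore given as a description. GCGCAGG preceded by TC and followed by GA occurred 13 times on X and 2 times on all autosomes. On X, 7 of the 13 lay within 200 bp of a summit of the optimal list, in 5 peaks, and 10 of the 13 were elsewhere. Neither autosomal place was that near a summit of the optimal list, and 1 of them lay 51 bp from a summit of the pooled list, with a signal of 9.50. The 7 X places near summits are among those printed, from which the flanks were picked, and autosomal summits were not used for that. Their nearness to X summits is thus built in, and no conclusion is drawn from it or from the contrast with the autosomes. The nearest summit to the 2 places upstream of xol-1, the gene that sets sex from X dose, was 5 and 28 bp away and 4903 bp upstream of its 5′ end, with a signal of 107 and values of 57.5 in replicate 1 and 55.2 in replicate 2. A tRNA gene and the noncoding gene C18A11.13 lay within 500 bp of that summit, nearer than xol-1. The nspc-17 summit (80.5) had 39.8 and 45.6, that of W02H3.3 (76.8) 53.8 and 24.96, that of F20B6.9 (76.8) 34.8 and 47.3, and that in mom-1 (68.4) 40.5 and 34.7. The log2 ratio of replicate 1 to replicate 2 was 0.06, -0.20, 1.11, -0.44 and 0.22 at these 5 summits in that order, each under the X median of 1.44. The 2 remaining X summits with GCGCAGG, in Y15E3A.5 (66.8) and past T27A8.7 (62.8), had 50.04 and 12.9, and 35.3 and 30.1. Their log2 ratios were 1.95 and 0.23, so a low ratio was not confined to summits with these flanks. A list of known recruitment sites was not used here, and whether these peaks depend on the dosage compensation complex was not tested.

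GAGAGA, counted with its reverse complement as all motifs were, was at 22.9% of X summits and 26.8% of autosomal ones, against 9.50% and 10.1% of all 201-bp windows. Among X summits it was at 31.2% (20 of 64) of those elsewhere and at 14.8% (13 of 88) of those at 5′ ends. TATAAA was at 19.6% of X and 16.1% of autosomal summits (22.8% and 20.9% of windows). TGATAA, a site of the GATA type, was at 20.8% and 15.6% (19.1% and 17.7%). TTTCAG, which resembles the end of an intron in C. elegans, was at 20.0% and 29.1% (31.6% and 36.7%). The median GC content of the 201 bases at X summits was 40.3% (autosomal summits 39.8%), above the 35.2% of the whole X. No X summit lay in a window of mostly repeated sequence, counted as under 50% of 36-base words unique in the genome.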

How the data were processed

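AMA-1 ChIP-seq of 2 biological replicates (1 group) was deposited as narrowPeak lists. The signal of each peak (column 7) is the authors' value, used as deposited to describe and rank peaks within a list, and column 10 gives the summit. Per the deposited file descriptions, replicate and pooled lists came from the alignments with a control and the optimal list from all of them by the irreproducible discovery rate. The sources used here name no peak caller, aligner or threshold, and depth is unknown. The replicate and pooled lists hold 30000 regions each, background included. In the optimal list 206 of the 240 X rows are 370 bp wide, which limits what width can show.

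Rows on X of the ce11 optimal list were kept. Summits were placed against 19973 protein-coding genes of the Ensembl release 115 annotation of WBcel235, with a 500 bp window, and each peak took the replicate region with the nearest summit among those overlapping it. Sequence came from RefSeq. Python 3.11.15, NumPy 2.4.6, pandas 2.3.3 and SciPy 1.17.1 were used, and placement, overlap and repeat marking were tested on simulated data. With 1 group no test was made. Alternatives were other windows, the stronger 930 peaks, each replicate alone, other overlap rules, the ce10 lists, summits in mostly unique sequence, GC content within 50 bp, the mean log2 signal and, added after the data were seen, occupied genes without list members. The members and the 25 gene lists were chosen with earlier results of these data known. Named were the 25 strongest X peaks, the 5 strongest per class of position, those on either side of the list's lower edge, occupied list members, the 5 at each end of the replicate ratio and the 3 densest 100 kb (the third is tied); other genes were chosen after their values were seen.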

Additional observations from a re-analysis of the deposited data

How the results depend on the processing

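Of 57 alternative settings over 12 results, 42 left the value within its spread, 15 moved it and 0 turned a direction. Most of these results are shares, which have no direction to turn. The setting of mostly unique sequence removed no X summit, so the X classes of position and occupied genes could not change under it. With a 250 bp window 27.9% of X summits were at 5′ ends, and with 1000 bp 50% were, with 20.8% in gene bodies and 20.0% elsewhere. On one replicate alone the 5′ end share ran from 23.95% to 40.8%, gene bodies from 25.3% to 41.6%, past 3′ ends from 8.58% to 11.8%, elsewhere from 22.7% to 25.3%, occupied genes from 2.09% to 3.59%, the X share of peaks from 12.5% to 12.8%, the central share from 44.1% to 48.5%, GC content from 39.8% to 40.8% and the median signal ratio of X to autosomes from 0.946 to 0.976. In the stronger 930 peaks that ratio was 0.982, GC content 41.3% and occupied genes 1.43%, the last because fewer peaks can mark genes. Overlap with replicate 1 was 91.9% in the stronger peaks and 97.9% with its whole list. Overlap with replicate 2 was 74.8%, 94.6% with its whole list and 45.0% when 50% had to overlap in both directions. On the ce10 lists X held 248 of 1957 peaks (12.7%), and the X minus autosome difference in the replicate log2 ratio was 0.16 instead of 0.12. Without the members of every gene list, an alternative chosen after seeing the data, 2.96% of X genes were occupied. The cause of these shifts was not tested. No paired analysis was possible because there is only 1 group. Unknown depth and the unstated signal scale limit every comparison of levels.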
